A study of Mus musculus with 15 samples.

Results

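Any prenatal aerosol exposure was compared with control in the striatum of mouse pups, and the libraries were chosen by their treatment label alone: 11 exposed libraries against 4 control libraries, which are 15 of the 15 libraries measured. RNA sequencing covered 15569 genes, of which 15556 were tested. All libraries came from C57Bl/6J pups at postnatal day 14. The 4 control libraries carried the label untreated. The exposed libraries came from pups whose dams, while pregnant, were exposed to an aerosol of paraquat (3 libraries), of titanium dioxide, TiO2 (4 libraries), or of a mix of both (4 libraries, called the mixture here). The labels give no dose, litter, dam, sex, batch or date, and nothing says that the libraries came from separate animals, so every p-value reflects the spread between these samples alone, and that spread may be technical.

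The striatum is the input nucleus of the basal ganglia. Its main cells are GABA-releasing medium spiny neurons, which form a direct pathway marked by the dopamine receptor gene Drd1 and an indirect pathway marked by Drd2, and it receives glutamate-releasing axons from cortex and thalamus and dopamine-releasing axons from the midbrain. At this postnatal age synapses form in large numbers and oligodendrocytes are laying down myelin. Paraquat is a herbicide that generates reactive oxygen by redox cycling, and TiO2 is a widely used particulate material.

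The unit throughout is the normalised read count, that is, reads scaled by a per-library size factor. Group values are means ± SD over libraries, where the exposed mean is over all 11. Each fold change is a difference of log2(value + 1), with the standard error of the fit, and gives the paraquat, TiO2 and mixture groups equal weight. A gene is called where the Benjamini-Hochberg adjusted p of limma's moderated test over all 15556 genes is under 0.05. "Not overlapping" means that all 11 exposed libraries lay on the same side of all 4 control libraries.

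Depth was 8690925 to 14207513 reads in the 11 libraries where whole reads could be recovered, with paraquat 3 the deepest, and 8911693 to 9655747 in the other 4. Defining medium spiny neuron genes were abundant in control, with Ppp1r1b at 9927 ± 1011, Drd1 at 3063 ± 155 and Penk at 17925 ± 2038 (n = 4). Mitochondrial genes held 21% ± 0.918 of the signal in control (n = 4) and 19% ± 1.51 in exposed libraries (n = 11; exact two-sided permutation p = 0.0176, adjusted p = 0.0527 over 3 measures). A GC trend, taken as the Spearman correlation across genes between transcript GC and the departure of a library from the mean of all libraries, averaged −0.26 ± 0.247 in control and 0.0794 ± 0.282 in exposed libraries (exact permutation p = 0.0527, adjusted p = 0.0791). Both measures spread over the groups, as the plot of mitochondrial share and GC trend by library shows, and their part in the results was not tested except where a GC-corrected value is given.

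**Figure D1:**
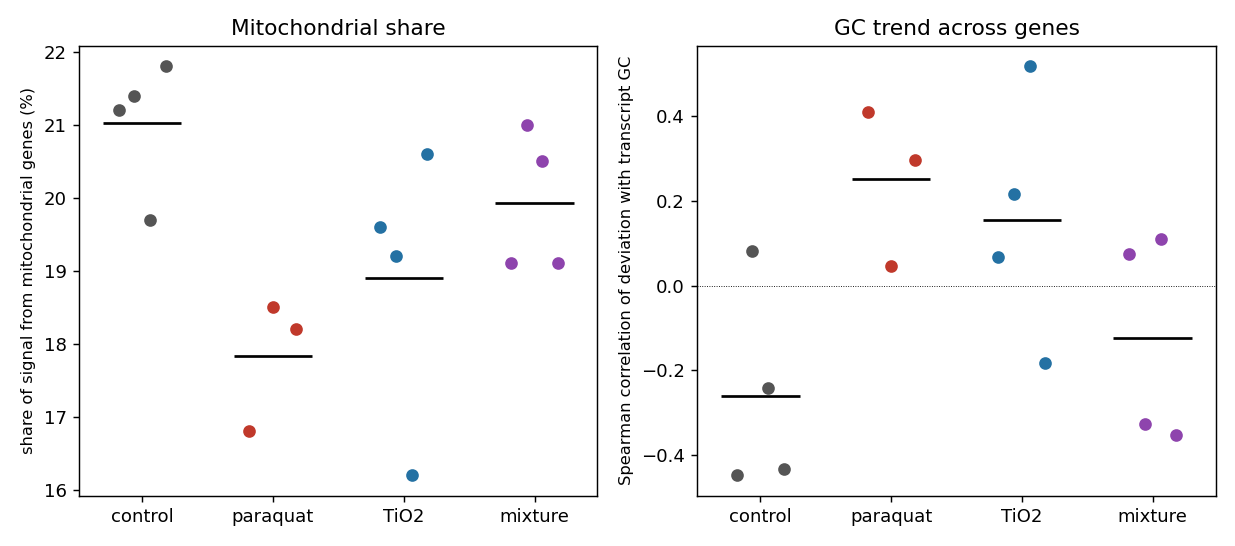
Share of signal from mitochondrial genes in percent (left) and the GC trend, a Spearman correlation across genes (right), by group. Points are libraries and lines are group means; control 2, at 0.0829, was the only control library with a GC trend above 0.

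Exposure was followed by many modest changes and a few large ones. Of 15556 genes tested 1503 (9.66%) were called, 1014 (6.52%) higher and 489 (3.14%) lower. The median called rise was 0.39 on the log2 scale and the median called fall was −0.29. Changes over 2-fold were called in 36 genes that rose and 9 that fell. Of all genes tested, 270 (1.74%) had every exposed library above every control library and 140 (0.9%) had every exposed library below, 410 (2.64%) together. They included 261 (25.7%) of the genes called higher and 101 (20.7%) of those called lower. Genes called higher had a median GC content of 55.2% and genes called lower 45.3%, against 50.2% for all genes tested. Genes other than protein-coding ones made up 5.13% of the rises and 20% of the falls, against 14.8% of all genes tested. The count of calls depended on the control libraries: it was 653 without control 1 and 865 without control 4, and 459 genes (383 higher, 76 lower) kept their call without any 1 library. A correction of each library's GC trend called 1360 genes, of which 933 were among the 1503.

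**Figure D2:**
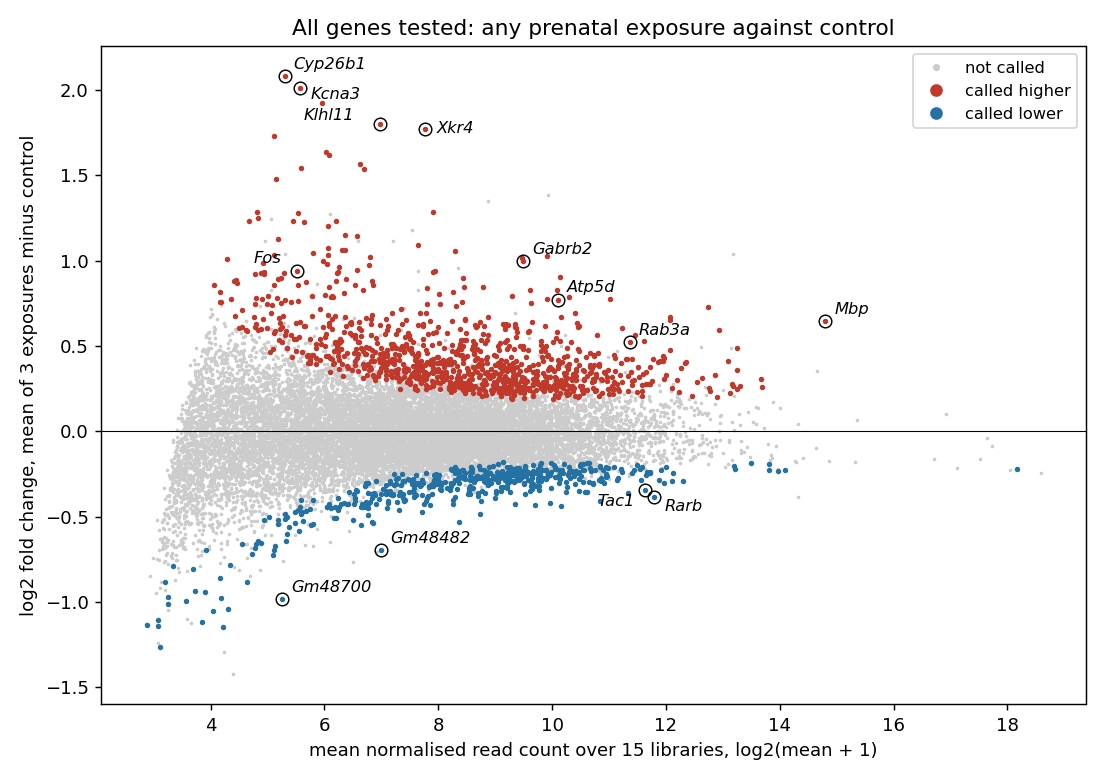
Log2 fold change of any exposure against control for all 15556 genes tested, against the log2 of the mean normalised read count over 15 libraries plus 1. Red points are the 1014 genes called higher, blue points the 489 called lower and grey points genes not called; rings mark named genes, and 36 called rises and 9 called falls lie beyond 2-fold.

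Among calls at a mean level of 20 or more the largest rise was in Cyp26b1, which encodes the enzyme that breaks down retinoic acid, a vitamin A product that shapes striatal development. Control libraries 1 to 4 had 16.6, 9.29, 8.51 and 7.86, and exposed libraries 23.8 to 87.6 with a median of 51.9. The groups did not overlap. The rise was 2.08 ± 0.27 on the log2 scale (limma adjusted p = 7.08e-05). Rarb, which encodes the retinoic acid receptor beta and is itself a target of retinoic acid, moved the other way. It was at 4361, 3924, 4200 and 4454 in control 1 to 4 and at 2840 to 3572, median 3295, in exposed libraries. Every exposed library lay below every control library, with a change of −0.38 ± 0.06 (adjusted p = 2.27e-04). Of the 15 tested genes of a list of retinoic acid handling, Cyp26b1 rose and Rarb and Rdh10 fell. The other 12 were not called, and 6.52% of all genes tested rose and 3.14% fell. Rdh10, which makes the retinal from which retinoic acid is formed, went from 193 ± 11.6 to 158 ± 10.7 (−0.29 ± 0.08, adjusted p = 0.0225), and its call ended without control 1 or 4 (adjusted p up to 0.093) or with the GC correction. The median of the list was 0.055, and −0.058 after the GC correction, against −0.013 for all genes.

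Promoter sequence from RefSeq (GRCm38.p6, 250 bases before to 50 after the start site) is shown for these retinoic acid genes because they moved in opposite directions. Retinoic acid receptor dimers are known to bind direct repeats, and capitals mark matches to the repeat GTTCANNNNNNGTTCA, searched on both strands. The Rarb window is chr14:16575427-16575726 on the minus strand, its match begins 52 bases before the start site, and it lies inside the longer gene model of GENCODE (14:16430839 to 16819156, protein coding). The Cyp26b1 window is chr6:84593761-84594060, also on the minus strand, at the 5′ end of a protein-coding gene on chromosome 6 from 84571414 to 84593908, and these letters were not in it.
Rarb: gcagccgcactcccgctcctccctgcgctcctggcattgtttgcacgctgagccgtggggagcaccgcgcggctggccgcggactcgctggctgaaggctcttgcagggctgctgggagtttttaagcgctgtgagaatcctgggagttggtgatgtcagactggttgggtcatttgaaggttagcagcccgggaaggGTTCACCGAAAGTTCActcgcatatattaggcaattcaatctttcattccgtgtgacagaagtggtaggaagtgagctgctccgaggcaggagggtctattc
Cyp26b1: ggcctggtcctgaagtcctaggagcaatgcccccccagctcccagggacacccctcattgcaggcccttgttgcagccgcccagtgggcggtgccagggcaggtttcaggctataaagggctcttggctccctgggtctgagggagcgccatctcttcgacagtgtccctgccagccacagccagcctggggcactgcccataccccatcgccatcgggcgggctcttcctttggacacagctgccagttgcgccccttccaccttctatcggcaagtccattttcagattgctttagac
The repeat was in 25 of 32851 promoters of the RefSeq table (0.0761%) and in 5 of 14063 promoters of genes tested (0.0356%). It was in 0 of 992 promoters of genes called higher and in 1 of 429 promoters of genes called lower, that of Rarb. The motif and these genes were picked after their values were seen, so the match in Rarb is no test. Other spellings and spacings of the repeat, and sequence outside the windows, were not searched for these genes. Any link of the motif to the direction of either change was not tested.

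Among the other large rises were a channel, an exchanger, a ubiquitin ligase adaptor and a corepressor. Kcna3, a voltage-gated potassium channel gene on chromosome 3 (107036169 to 107038070), had 30, 10.3, 10.6 and 8.85 in control 1 to 4 and 32.7 to 75.7, median 63.9, in exposed libraries. The groups did not overlap, although control 1 lay close to the lowest exposed library, mixture 1. The rise was 2.01 ± 0.22 (adjusted p = 6.13e-06). Xkr4, a member of the XK family of membrane proteins on chromosome 1 (3205901 to 3671498), had 92.2, 57.8, 91.5 and 67.8 in control and 189 to 341, median 279, in exposed libraries. It had the smallest adjusted p of the genes named here, with a rise of 1.77 ± 0.13 (adjusted p = 2.11e-08). Klhl11, a BTB and kelch domain gene of the ubiquitin ligase adaptor family, had 78.7, 31, 37.2 and 36.4 in control and 108 to 189, median 162, in exposed libraries (1.80 ± 0.16, adjusted p = 2.92e-07). Slc9a7, a sodium-proton exchanger of the Golgi, rose by 1.54 ± 0.13, from 42.2 ± 9.15 to a range of 74.3 to 163. Nkain3, whose product binds the sodium pump, rose by 1.62 ± 0.13 and the corepressor gene Lcor by 1.57 ± 0.15. In none of these 6 genes did leaving out any 1 library, the GC correction or another test end the call.

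**Figure D3:**
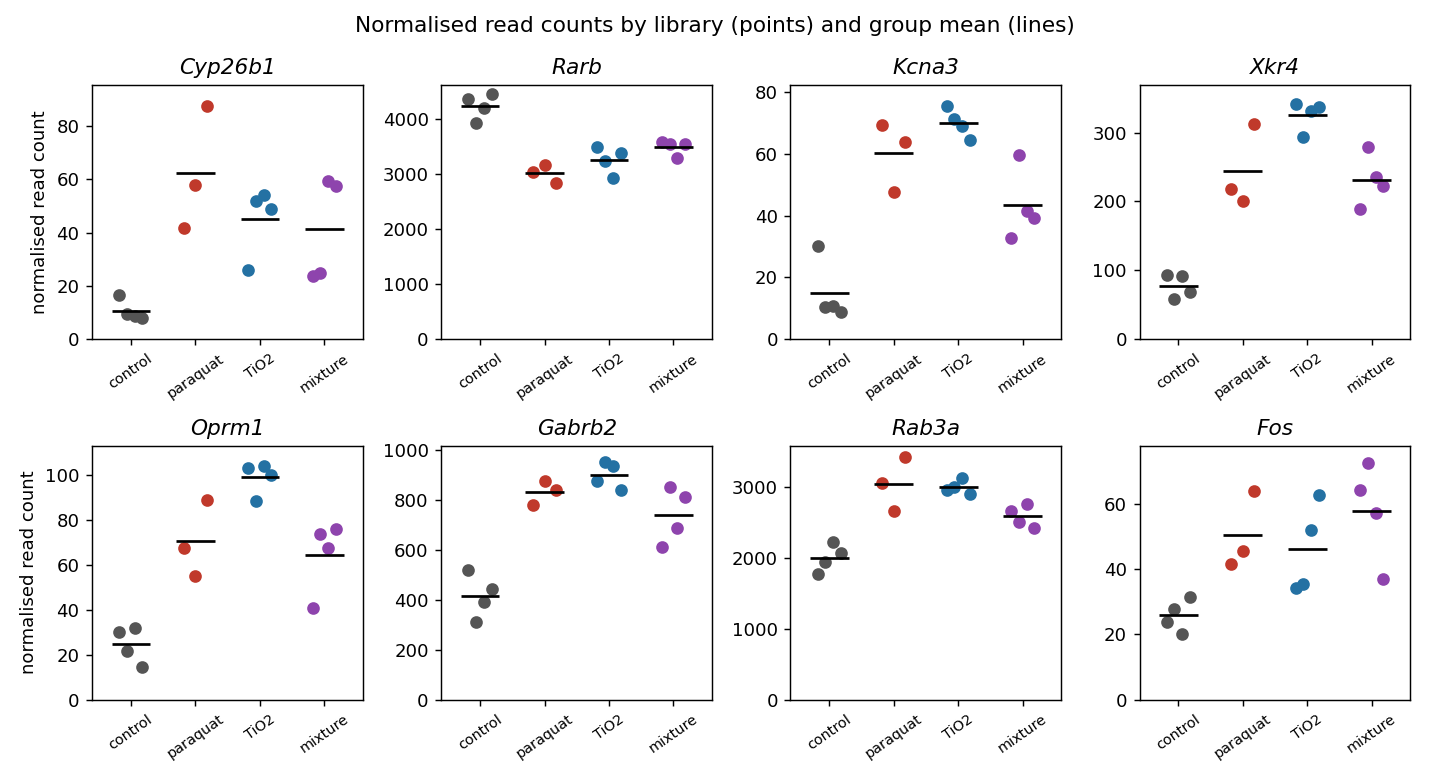
Normalised read counts of 8 genes in each library (points) with group means (lines), for control, paraquat, TiO2 and mixture. In each panel the exposed libraries lie on the same side of the 4 control libraries: below them for Rarb and above them for the other 7 genes.

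Oprm1 encodes the mu opioid receptor, which marks the patches, or striosomes, of the striatum. Control libraries had 30, 21.7, 31.9 and 14.7 and exposed libraries 40.6 to 104, median 76.1. No exposed library fell to the control range, and the rise was 1.64 ± 0.18 (adjusted p = 4.76e-06). The gene lies on chromosome 10 (6758506 to 7038198) and shares exonic bases with Ipcef1 on the other strand (0.51 ± 0.25, adjusted p = 0.228). Whether strand was used in counting is not given in the sources used here, so reads of overlapping genes on opposite strands may not have been told apart. Of the 7 tested genes of the opioid system, Pnoc, the precursor of nociceptin, rose as well, from 17.2 ± 5.47 to 34.2 ± 17 (0.94 ± 0.20, adjusted p = 0.00537), and the call ended with the 11 exposed libraries taken as 1 group or with TiO2 and mixture alone (adjusted p up to 0.114). The other 5 were not called, where 6.52% of all genes tested rose and 3.14% fell.

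Others of the 12 largest rises share sequence with neighbours or rest on single libraries. Gm38020, a transcript to be experimentally checked on chromosome X, rose by 1.92 ± 0.23 and overlaps exons of the noncoding gene Ftx on the same strand, which was at −0.23 ± 0.09 (adjusted p = 0.113). Gm38394 rose by 1.54 ± 0.18 and shares exons and strand with Zc3h11a, which rose by 0.84 ± 0.10, so their reads cannot be assigned with certainty. Slc17a6, the vesicular glutamate transporter 2 of thalamic neurons, had 2.07, 19.6, 10.6 and 19.7 in control and 7.26 to 72.7, median 42.6, in exposed libraries. The groups overlapped, and the rise of 1.73 ± 0.46 (adjusted p = 0.0323) was lost without control 3, paraquat 1, paraquat 3 or TiO2 3 (adjusted p up to 0.0743). Neurod2, a transcription factor of cortical glutamatergic neurons, had 4.14 to 21.3 in control and 13.5 to 99.4 in exposed libraries (1.48 ± 0.44, adjusted p = 0.0491). Its call ended in 20 of 32 alternatives, among them leaving out any 1 of control 1, 2 and 4, paraquat 3, TiO2 2, 3 and 4 and each mixture library (adjusted p up to 0.155).

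Lists of synapse genes held calls in 1 direction, beside 6.52% higher and 3.14% lower over all genes tested. Synaptic vesicle and release genes numbered 19, of which 8 rose and 0 fell, with a median of 0.22 against −0.013 for all genes, and 5 kept their call without any 1 library, among them Stx1a, Rab3a and Pclo. Rab3a, the GTPase of synaptic vesicles, had 1777, 1945, 2226 and 2068 in control and 2433 to 3426, median 2908, in exposed libraries. The groups did not overlap (0.52 ± 0.07, adjusted p = 2.82e-05). It shares exonic bases with Mpv17l2 on the other strand (0.31 ± 0.11, adjusted p = 0.0717). Pclo, the release-site scaffold piccolo, went from 2507 ± 203 to 3123 ± 127 (0.32 ± 0.06, adjusted p = 0.00146). On the postsynaptic side 4 of 15 scaffold genes rose and 0 fell (median 0.10), among them Shank1 (0.60 ± 0.12, adjusted p = 0.0032) and Dlgap2 (0.32 ± 0.07, adjusted p = 0.00424). DESeq2 called 5 of these scaffold genes higher and 1 lower.

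Receptor genes were mixed, beside 6.52% higher and 3.14% lower over all genes tested. Of 12 GABA-A receptor subunit genes 3 rose and 1 fell. Gabrb2, the beta 2 subunit, had 522, 313, 390 and 446 in control and 614 to 955, median 841, in exposed libraries. The groups did not overlap, and the level rose by 1.00 ± 0.10 on the log2 scale (adjusted p = 1.66e-06). Gabra4, the alpha 4 subunit abundant in medium spiny neurons, was the subunit called lower (−0.24 ± 0.08, adjusted p = 0.046), and its call was lost without any 1 of 9 libraries or with the GC correction (adjusted p up to 0.174). Of 15 ionotropic glutamate receptor genes 5 rose and Gria3 fell, and of those calls the kainate receptor gene Grik3 alone held without any 1 library (528 ± 32.1 to 650 ± 47.2, 0.30 ± 0.06, adjusted p = 0.00356). Of 7 metabotropic glutamate receptor genes 3 rose, and none of these calls held without every library in turn.

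Of 26 potassium channel genes 8 rose and 1 fell, beside 6.52% and 3.14% of all genes tested (median 0.22 against −0.013). Kcnj6, an inwardly rectifying channel opened by G proteins, had 8.29, 10.3, 17 and 13.8 in control and 15.6 to 70, median 27.7, in exposed libraries. TiO2 1 lay below control 3, and paraquat 2 was the highest library (1.28 ± 0.24, adjusted p = 0.00145). Kcnc2, a channel of fast-firing neurons, went from 143 ± 7.57 to 284 ± 101 (0.94 ± 0.18, adjusted p = 0.0047), but its call ended with the 11 exposed libraries taken as 1 group (adjusted p = 0.0717). Kcna1 went from 488 ± 130 to 725 ± 89.3 (0.61 ± 0.11, adjusted p = 0.00193), and its call ended with the replicate block and GC correction together (adjusted p = 0.0623). The gene that fell was Kcnab1, a beta subunit of these channels (−0.29 ± 0.07, adjusted p = 0.0123), whose call was lost without control 1 or 4 (adjusted p up to 0.0638).

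Of 35 axon guidance genes 9 rose and Epha4 fell, where 6.52% of all genes tested rose and 3.14% fell. The list median was 0.14 against −0.013 for all genes. The netrin receptor gene Unc5d had 99.5, 79.5, 120 and 100 in control and 119 to 198, median 164, in exposed libraries. TiO2 1 was the only exposed library below the highest control (0.69 ± 0.11, adjusted p = 1.93e-04). Groups did not overlap for the ephrin receptor genes Epha6 (77.2 ± 10.6 to 124 ± 23.9, 0.66 ± 0.12) and Ephb2 (58.6 ± 5.03 to 90.3 ± 16.8, 0.62 ± 0.13). Unc5c and Sema4d also kept their calls without any 1 library. Gfra2, the receptor for the growth factor neurturin, went from 45.3 ± 11.8 to 82.6 ± 18.7 (0.88 ± 0.16, adjusted p = 0.00105).

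**Figure D4:**
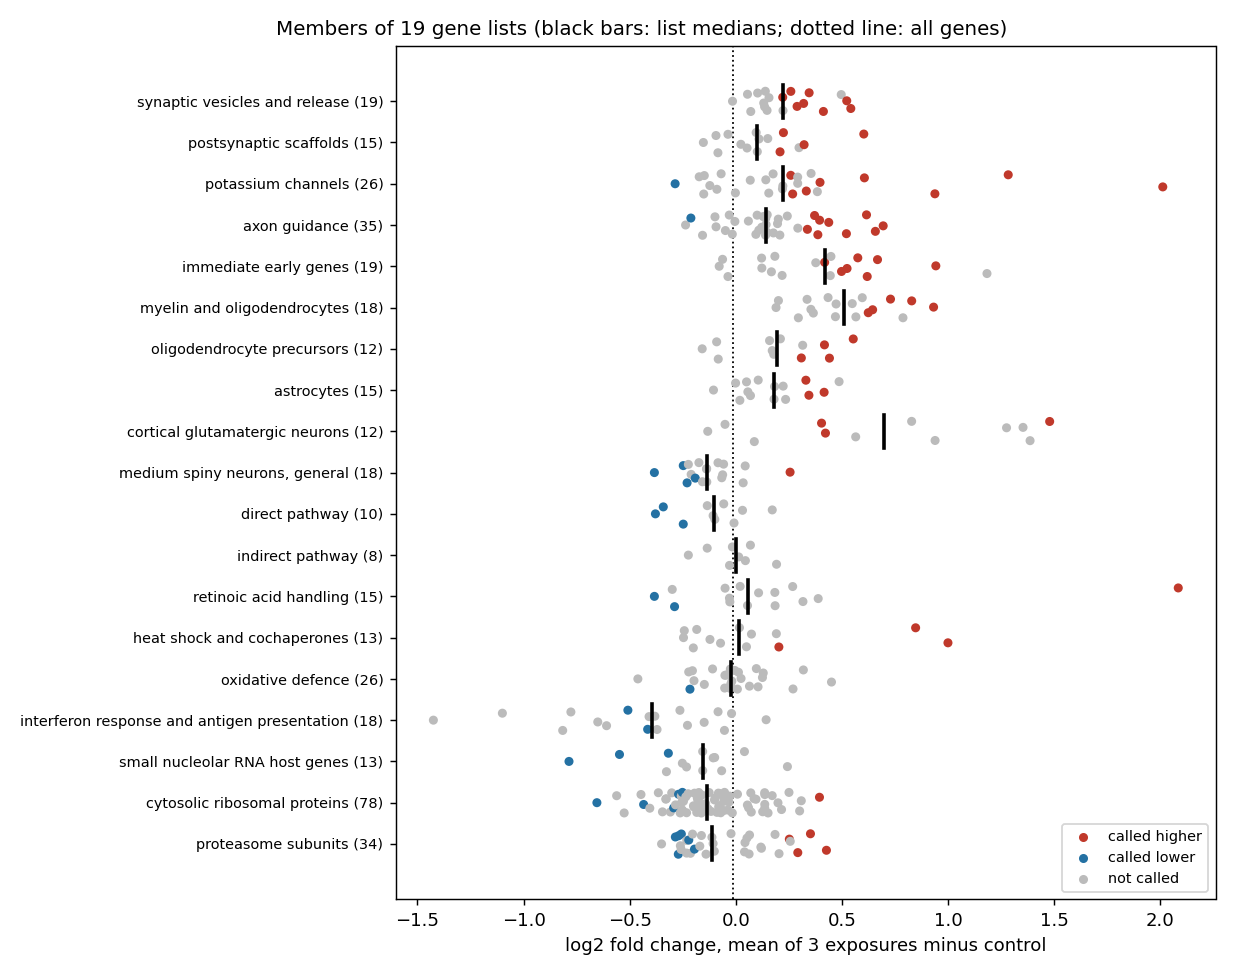
Log2 fold change of any exposure against control for each tested member of 19 gene lists, with the number of members in brackets. Red points were called higher, blue called lower and grey not called; black bars are list medians and the dotted line is the median of all genes, −0.013. Among the lists shown, medians lie highest for cortical glutamatergic neurons (0.696), myelin (0.510) and immediate early genes (0.419) and lowest for interferon response genes (−0.395).

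Immediate early genes are switched on within minutes of neuronal activity. Of 19 such genes 7 rose and 0 fell, beside 6.52% and 3.14% of all genes tested, with a median of 0.42 against −0.013. Fos had 23.8, 27.9, 20.2 and 31.5 in control and 34.2 to 72.7, median 52.2, in exposed libraries, with no overlap (0.94 ± 0.18, adjusted p = 0.00213). Egr1 went from 2968 ± 490 to 4786 ± 883 (0.67 ± 0.13, adjusted p = 0.00662). The other called genes, Fosl2, Egr2, Egr4, Arc and Nr4a3, were each lost without at least 1 library: Fosl2 without control 1 (adjusted p = 0.0555), and the rest without control 3 and others (adjusted p up to 0.133 for Egr2, 0.167 for Egr4, 0.147 for Arc and 0.0791 for Nr4a3). After the GC correction 4 genes of the list were called. Among 17 circadian clock genes Per1 (310 ± 36.4 to 428 ± 68.1, 0.46 ± 0.09), Nr1d1 and Bhlhe40 rose and 0 fell, at a list median of 0.013. Nr1d1, which encodes the clock repressor REV-ERB alpha, had 593 to 754 in control and 829 to 1373 in exposed libraries (0.61 ± 0.09, adjusted p = 2.17e-04), and overlaps exons of Thra on the other strand (0.18 ± 0.07, adjusted p = 0.0993). Bhlhe40 was lost without any 1 control library (adjusted p up to 0.0986).

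Markers of cortical glutamatergic neurons differed in how far they lay from control. Of 12 tested members 3 were called higher (Neurod2, Cux2 and Rasgrf2) and 0 lower, beside 6.52% and 3.14% of all genes tested. The list median was 0.696, and none of the 3 calls held without every library in turn. Without control 1 the adjusted p of Cux2 was 0.0612 and of Rasgrf2 0.0573. Slc17a7, the vesicular glutamate transporter 1, was at 419 ± 149 in control and 1175 ± 671 in exposed libraries (adjusted p = 0.0625), and Tbr1 at 200 ± 77 and 563 ± 344 (adjusted p = 0.0867). Rorb, at −0.13 (adjusted p = 0.322), and Lamp5, at −0.05 (adjusted p = 0.763), lay slightly below control. The summed signal of the list was 3624 to 5059 in control, 4681 to 8472 after paraquat, 4339 to 5717 after TiO2 and 5647 to 7191 after the mixture. The score of a library, the mean log2 difference of members from the control mean, was −0.57 to 0.26 in control and −0.20 (TiO2 1) to 1.56 (paraquat 2) in exposed libraries. None of the 12 was at 0 in every library of a group. The part of these markers in the rises of synaptic, channel and immediate early genes was not tested.

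Myelin and oligodendrocyte genes were higher in many exposed libraries. Of 18 genes 5 rose and 0 fell, beside 6.52% and 3.14% of all genes tested, with a median of 0.51 against −0.013. Of the 5, 2 kept their calls without any 1 library, Myrf among them. Myelin basic protein (Mbp) had 20283, 24351, 14840 and 21810 in control and 19407 to 40417, median 32770, in exposed libraries. Mixture 4, TiO2 1 and TiO2 4 lay below the highest control, and the 3 paraquat libraries were at 37841 to 40417. The rise of 0.64 ± 0.17 (adjusted p = 0.0321) lost its call when control 1, 3, 4 or paraquat 1, 3 was left out (adjusted p up to 0.0915). Myrf, the transcription factor that switches on myelin genes, went from 285 ± 33.7 to 440 ± 102 (0.62 ± 0.12, adjusted p = 0.00386). Sox10, which marks the whole oligodendrocyte lineage, went from 487 ± 19.8 to 718 ± 156 (0.55 ± 0.11, adjusted p = 0.00368) and was among 4 of 12 precursor genes that rose; it alone of the 4 held without any 1 library. Of 15 astrocyte genes 3 rose and 0 fell, and the transcription factor gene Sox9 (447 ± 69.7 to 588 ± 86.9, 0.42 ± 0.08) was the member that held without any 1 library, while the call of Gfap (0.33 ± 0.10, adjusted p = 0.0324) did not (adjusted p up to 0.126). In bulk tissue more cells of a type and more RNA per cell cannot be told apart, nor can fewer cells and less RNA.

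Genes of medium spiny neurons were level or slightly lower. Over all genes tested 3.14% fell and 6.52% rose, at a median of −0.013. Of 18 general markers 4 fell and Rasd2 rose (median −0.14), 7 fell and 0 rose after the GC correction, and of the first calls that of Rarb, given above, held without any 1 library. Of 10 direct-pathway genes 3 fell and 0 rose. Tac1, the precursor of substance P, had 4226, 3474, 3396 and 3744 in control and 2356 to 3669, median 2895, in exposed libraries. Mixture 2 overlapped the control range (−0.34 ± 0.07, adjusted p = 0.00534). Isl1, a transcription factor of direct-pathway cells, went from 269 ± 11.8 to 209 ± 25.9 with no overlap (−0.38 ± 0.09, adjusted p = 0.00895), and its adjusted p was 0.0515 with TiO2 and mixture alone as the exposed groups. Ebf1, a member of both lists, was lost without control 1 or 4 (adjusted p up to 0.132). Of 8 indirect-pathway genes limma called 0, beside 9.66% of all genes tested. Of the 8, 1 was lower at an unadjusted limma p under 0.05, as were 1823 of all 15556 genes. Both edgeR and DESeq2 also called 0 of the 8. With the GC correction 1 was called lower, Penk, the enkephalin precursor (−0.30, adjusted p = 0.0152), which was also called without control 3 (adjusted p = 0.0453) and with paraquat and TiO2 alone (adjusted p = 0.0249). The direct and indirect lists were not tested against each other.

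Drd1 was at 3063 ± 155 in control and 2594 to 3157 in exposed libraries (−0.13, adjusted p = 0.146). Drd2 was at 2545 ± 235 and 2153 to 2965 (0.07, adjusted p = 0.578), and its sign turned with the GC correction (−0.01). Of 12 tested dopamine system genes 1 rose and 1 fell, beside 6.52% and 3.14% of all genes tested. The gene that fell was Maoa, which encodes an enzyme that breaks down dopamine (281 ± 12.4 to 231 ± 32.2, −0.30 ± 0.09). The call of Maoa was lost without any 1 of 6 libraries, 3 of them control, or with the GC correction (adjusted p up to 0.176). Tyrosine hydroxylase (Th), the first enzyme of dopamine synthesis, was at 99.1 ± 11.3 and 61.9 to 107 (adjusted p = 0.492), and the dopamine transporter gene Slc6a3 at 12.4 ± 1.8 and 2.17 to 12.5 (adjusted p = 0.185), where 3 reads correspond to 1.98 to 3.25 units. Of 14 genes of inherited parkinsonism limma called 0, beside 9.66% of all genes tested. At an unadjusted limma p under 0.05, 3 were higher and 4 lower, beside 2185 higher and 1823 lower of all 15556 genes. The edgeR test called 1 lower, and DESeq2 1 higher and 1 lower.

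Of 26 genes of oxidative defence 0 rose and 1 fell, beside 6.52% and 3.14% of all genes tested, and the median was −0.02. DESeq2 called 1 higher and 2 lower, and the fit with the 11 exposed libraries as 1 group 1 higher and 0 lower. The gene that fell was Gclc, the catalytic subunit of the enzyme that makes the glutathione precursor (737 ± 24.9 to 638 ± 60.8, −0.22 ± 0.06, adjusted p = 0.033), and its call was lost without control 1, 3 or 4, paraquat 1 or mixture 3 (adjusted p up to 0.12). Hmox1, heme oxygenase 1, was at 93.3 ± 5.71 in control and 77.1 to 135 in exposed libraries (adjusted p = 0.639), and Nqo1, a quinone reductase, at 24.6 ± 4.27 and 14.5 to 23.8 (adjusted p = 0.101). Gstm1, a glutathione transferase on the list of xenobiotic and metal response, went from 152 ± 49.7 to 247 ± 32.6 (0.74 ± 0.13, adjusted p = 0.00176), with TiO2 1, TiO2 3 and mixture 4 below control 3.

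Among chaperone genes a pair rose by a large amount. Of 13 heat shock and cochaperone genes 3 rose and 0 fell, beside 6.52% and 3.14% of all genes tested, and the list median was 0.02. At an unadjusted limma p under 0.05 the list held 3 higher and 3 lower, where all 15556 genes held 2185 and 1823. The edgeR and DESeq2 tests each called 3 higher and 1 lower. The third gene that rose, Hsp90ab1 (0.20 ± 0.05, adjusted p = 0.0202), was lost without control 1 or 4 (adjusted p up to 0.106). Bag3, a cochaperone that steers damaged proteins to autophagy, had 26.9, 23.7, 51.1 and 45.2 in control and 51.5 to 107, median 68.7, in exposed libraries. The groups did not overlap although control 3 lay close to mixture 1 (1.00 ± 0.17, adjusted p = 7.11e-04). Cryab, the small heat shock protein alpha B-crystallin, had 262, 285, 227 and 345 in control and 354 to 714, median 501, in exposed libraries (0.85 ± 0.13, adjusted p = 5.97e-04). Its groups did not overlap either, and it shares exonic bases with Hspb2 on the other strand. Heat shock factor binds inverted repeats of GAA, and capitals mark GAANNTTC in the Bag3 promoter (RefSeq, GRCm38.p6, chr7:128523333-128523632, plus strand), where the match begins at base 43 after the start site. The pattern GAANNTTC, though not the marked stretch itself, reads the same on both strands.
Bag3: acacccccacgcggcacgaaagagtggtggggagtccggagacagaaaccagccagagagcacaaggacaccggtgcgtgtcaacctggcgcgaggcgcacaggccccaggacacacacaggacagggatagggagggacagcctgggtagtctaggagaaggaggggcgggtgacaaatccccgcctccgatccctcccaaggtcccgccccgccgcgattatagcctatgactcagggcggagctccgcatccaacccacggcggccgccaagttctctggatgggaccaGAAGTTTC
The motif was in 7.86% of all promoters of that table, in 5.62% of those of genes tested, in 6.15% of those of genes called higher and in 6.29% of those of genes called lower.

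The largest falls were in noncoding or little-studied genes. Gm48482, a transcript to be experimentally checked on chromosome 12 (14128116 to 14130648), had 209, 161, 169 and 160 in control and 83 to 139, median 105, in exposed libraries. The groups did not overlap, and it fell by 0.70 on the log2 scale (SE 0.11, adjusted p = 1.99e-04). Gm48700, inside the gene of the adhesion protein neurexin 3 (Nrxn3) on the same strand, changed by −0.98 ± 0.25 from 58.3 ± 19 to a median of 28.1 (adjusted p = 0.0177), and was lost without control 1 or 4 (adjusted p up to 0.0926), while Nrxn3 was at −0.07 ± 0.06 (adjusted p = 0.461). Of the other 10 largest falls, which ranged from −0.89 (Gm44242) to −0.65 (1700029J07Rik), the latter alone kept its call without any 1 library, and Gm44242, within Lrrtm4, was lost without control 1 or 2 (adjusted p up to 0.0796). Of 13 genes listed as hosts of small nucleolar RNAs 3 fell and 0 rose, beside 3.14% and 6.52% of all genes tested. The 3 were Gas5 (278 ± 15.1 to 223 ± 14.5, −0.32 ± 0.07), Snhg6 (125 ± 3.53 to 89.3 ± 20.7, −0.55 ± 0.13) and Mir17hg (28 ± 4.73 to 16 ± 2.78, −0.79 ± 0.19). The list holds Mir17hg, although that gene hosts microRNAs. All 3 calls held without any 1 library, and that of Snhg6 ended with TiO2 and mixture alone (adjusted p = 0.0994).

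Genes of translation, respiration and protein breakdown split by member, beside 3.14% lower and 6.52% higher over all genes tested. Of 78 cytosolic ribosomal protein genes 5 fell and 1 rose (median −0.14), with Rpl5 (280 ± 22.8 to 212 ± 34.8, −0.43 ± 0.09) and Rpl4 (−0.25 ± 0.06) held without any 1 library. Many of these genes have processed copies in the genome, so their counts are uncertain where reads fit more than 1 copy. Of 80 nuclear genes of the respiratory chain and ATP synthase 4 fell and 3 rose, where 3.14% of all genes tested fell and 6.52% rose. Atp5d, the delta subunit of ATP synthase, had 650, 783, 758 and 677 in control and 861 to 1621, median 1202, in exposed libraries (0.77 ± 0.09, adjusted p = 9.41e-06). It overlaps exons of Cbarp on the other strand (0.20 ± 0.08, adjusted p = 0.107). Ndufb5, a complex I subunit, went from 1962 ± 167 to 1590 ± 124 (−0.31 ± 0.07, adjusted p = 0.00496). Of 34 proteasome subunit genes 4 rose and 6 fell, and Psmb4 (272 ± 23.4 to 369 ± 59, 0.43 ± 0.08) alone held without any 1 library.

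Of 7 mitochondrially encoded mRNAs mt-Nd6 rose and mt-Co1 fell, beside 6.52% and 3.14% of all genes tested. The gene mt-Nd6 is the one protein gene of the mitochondrial light strand. It had 87, 43.3, 55.3 and 68.8 in control and 85.4 to 182, median 120, in exposed libraries, and TiO2 2 alone lay below control 1 (0.97 ± 0.14, adjusted p = 7.64e-05). Its exon overlaps that of mt-Nd5 on the other strand, which is far more abundant (155448 in control and 137860 in exposed libraries, −0.21 ± 0.11, adjusted p = 0.206). The call of mt-Co1 (−0.22 ± 0.07, adjusted p = 0.0429) was lost without any 1 of 8 libraries and with the GC correction (adjusted p up to 0.265).

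Of 15 genes of DNA methylation and chromatin 2 rose and 0 fell, beside 6.52% and 3.14% of all genes tested, with a list median of 0.003. With the GC correction 3 were called higher and 1 lower. Tet1, which oxidises methylated cytosine, had 863, 567, 776 and 728 in control and 868 to 1220, median 1015, in exposed libraries (0.50 ± 0.08, adjusted p = 4.08e-04).

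Interferon response and antigen presentation genes had the lowest list median, −0.395 over 18 genes. Of these 2 fell and 0 rose, beside 3.14% and 6.52% of all genes tested. Irf9, a transcription factor of interferon signalling, fell (−0.42 ± 0.12, adjusted p = 0.0312), and its call was lost without control 2, control 4 or paraquat 1 (adjusted p up to 0.158). Control 2 and 4 had list scores of 0.302 and 0.682, while control 1 and 3, at −0.438 and −0.545, lay within the exposed range of −0.801 to −0.123. All 11 exposed libraries lay below control 2 and control 4.

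The 3 exposures share the 4 control libraries, so their own values are given side by side. The genes called higher had a median of 0.45 after paraquat, 0.40 after TiO2 and 0.31 after the mixture, and the genes called lower −0.37, −0.32 and −0.20. Cyp26b1 was at 2.45 ± 0.35, 2.00 ± 0.32 and 1.80 ± 0.32 in that order, and Rarb at −0.49, −0.38 and −0.28. The exposures themselves were compared by a moderated F test, which uses no control mean. Limma called 0 of 15556 genes (0%), with a smallest adjusted p of 0.0506 and 1989 genes (12.8%) at an unadjusted p under 0.05. The count tests differed: edgeR called 1 gene and DESeq2 127.

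Among the genes with the smallest p in that test, the mixture stood near control in Dbpht2 and Psmd12. Dbpht2, a long noncoding RNA, had 604 to 711 after paraquat, 725 to 772 after TiO2 and 821 to 1096 after the mixture, against 944 to 985 in control (F test adjusted p = 0.0506). Its log2 fold changes were −0.58 ± 0.09, −0.37 ± 0.08 and −0.01 ± 0.08. Psmd12, a proteasome subunit gene, was at −0.47, −0.31 and 0.09 (F test adjusted p = 0.0755). Its mean over exposures (−0.23 ± 0.08, limma adjusted p = 0.0585) was called in 5 of 32 alternatives, with adjusted p down to 0.0034. These were the fits without paraquat 3, TiO2 4 or mixture 2 (down to 0.0401), with the replicate block, and with paraquat and TiO2 alone. The glutamate transporter gene Slc17a6 was at 55.3 ± 11.8 after paraquat, 18.7 ± 9.08 after TiO2 and 52.4 ± 18.3 after the mixture, which the F test did not call (adjusted p = 0.323).

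**Figure D5:**
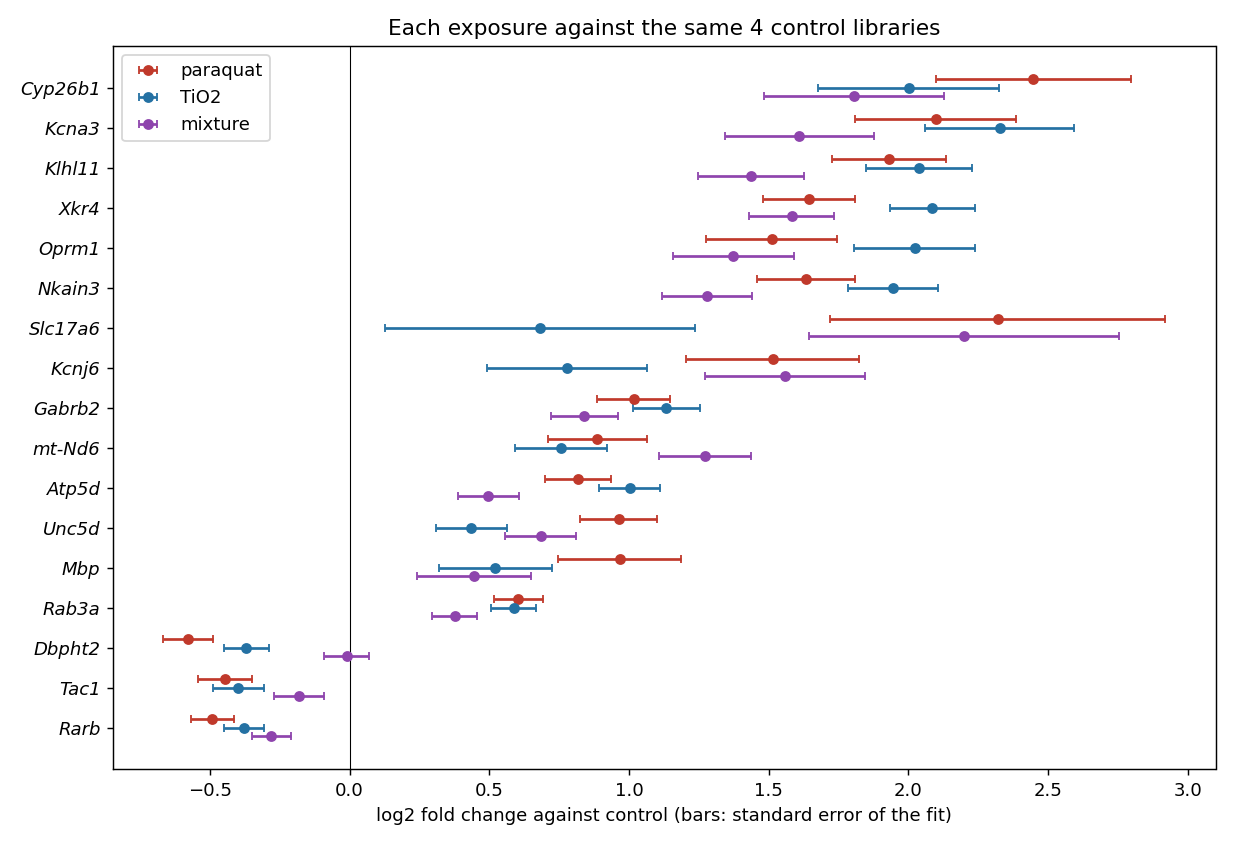
Log2 fold change of each exposure against the same 4 control libraries for 17 genes, with the standard error of the fit as bars. The 3 exposures lie on the same side of 0 for every gene shown, and for Dbpht2 the mixture is at −0.01.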

How the data were processed

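Per the labels' protocols, RNA came from a Macherey-Nagel column kit and cDNA libraries from Lexogen's SENSE chemistry for total RNA, run on an Illumina NextSeq500. Among tools, the submitters' processing notes list DESeq2 2.1.8.3 and Bowtie2 2.3.2.2, with build mm10. The sources used here give no read counter, annotation or use of strand. The authors deposited 1 table of a normalised signal, whole reads divided by a size factor per library, as read from the values: whole reads were recovered within 0.001 in 11 libraries, and in 4 (paraquat 1, TiO2 3 and 4, mixture 1) the step was too near 1 to claim it. No column of another sample was set aside (0). Annotation is GENCODE M21 (GRCm38), which held all 15569 symbols.

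Values were tested as log2(value + 1) with limma 3.58.1 in R 4.3.3 (trend and robust options), 15 libraries, a mean per group, after filterByExpr of edgeR 4.0.16 (15556 genes kept). The contrast was the mean of the 3 exposure means minus control, and an F test compared the exposures. Fold changes of low genes are understated on this scale. Scripts were tested on simulated data. Alternatives were edgeR and DESeq2 1.42.0 on reads, voom, other pseudocounts (0.5, 5), filters and scalings, a GC correction, a replicate block, each library left out, and subsets of exposures. The plan had allowed for raw counts, where edgeR would have led.

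The 12 largest rises and falls among calls averaging 20 or more were named, then up to 24 called list members by smallest p (at most 2 of a list), a set of dopamine, glial and stress genes in any case, and the genes of smallest F test p. Some genes met by these rules are not reported here. Other named genes are members of the lists described. Groups, gene lists and this comparison were chosen with earlier results of these data known. Read counts without molecular identifiers cover counting error only.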

Additional observations from a re-analysis of the deposited data

Results flagged for a closer look

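Among 204 sets of 4 libraries (a named gene or library measure within control, TiO2 or mixture), 9 held a library whose distance from the nearest other library exceeded Dixon's 95% critical share of the whole range. Chance flags about 1 in 20 such sets. Control 1 stood high for 3 of the leading rises: Cyp26b1 at 16.6 (the others 7.86 to 9.29), Kcna3 at 30 (8.85 to 10.6) and Klhl11 at 78.7 (31 to 37.2). Control 2 stood low for Ppil6 at 27.9 (39.3 to 40.4) and high for Gfap at 395 (292 to 304). Mixture 2 stood low for the dopamine transporter gene Slc6a3 at 2.17 (9.25 to 10.4) and for Hmox1 at 79.2 (96.7 to 99), and high for Psmd12 at 508 (434 to 437). Mixture 3 stood low for Rarb at 3295 (3537 to 3572). The fold changes of Cyp26b1, Kcna3, Klhl11 and Rarb kept their direction and their call without the library named.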

How the results depend on the processing

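The count of 1503 called genes was 653 to 1777 over the fits that leave out 1 library each, with 502 to 1137 higher and 151 to 685 lower. It was 653 without control 1 and 865 without control 4, and the count of falls was 304 without control 3 and 318 without mixture 3. With the 11 exposed libraries as 1 group 925 genes were called, 224 of them lower. With TiO2 and mixture as the exposed groups there were 680 (558 higher, 122 lower), with paraquat and mixture 997 (260 lower), and with paraquat and TiO2 2312 (974 lower). A change over 1.5-fold was met by 237 calls, 203 higher and 34 lower. The other settings (count tests, voom, pseudocounts, filters, scalings, the GC correction and Xist level as a covariate) called 1360 to 1788 genes. In the fit with replicate number as a block 1682 genes were called, and 1522 with the GC correction added. The labels do not say whether equal numbers pair the samples. The correlation of deviations was over 0.1 in 8 of 21 same-number pairs. It was −0.186 to 0.271 in same-number pairs and −0.338 to 0.337 in the others, and 3 of 15 libraries were closest to their own number. With so few libraries these values cannot settle whether the numbers pair the samples.

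Differences among the exposures were called in 0 genes, and in 1 by edgeR, 127 by DESeq2, 1 with a pseudocount of 5, 1 with a mean of at least 20, 1 with TMM scaling, 4 with the replicate block, 22 with the block and the GC correction, and 0 to 20 without 1 library, the most without TiO2 3. The difference in mitochondrial share, −2.04 percentage points, was −2.48 to −1.77 without 1 library (p up to 0.0549, without control 4, by exact permutation). That of the GC trend, 0.34, was 0.277 to 0.454. That of total reads, 422330, was −40576 to 638492, turning without paraquat 3. 

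Of 6101 recomputed fold changes of 191 genes, 5177 kept their direction and side of the threshold, 889 lost the call, 11 gained it and 24 turned sign, all 24 in genes not called. Drd2 was at −0.01 with the GC correction and −0.00 with the block added. Ppp1r1b was at −0.07 and −0.08 in the same settings and −0.00 to 0.10 without 1 library, and Aif1 at −0.22 to 0.12. Gclm was at 0.04 with the GC correction, 0.01 with the block, 0.06 with both, 0.05 with paraquat and mixture alone and −0.16 to 0.07 without 1 library. Sod2 was at −0.06 to 0.00 without 1 library. B930095G15Rik was at 0.05 with the GC correction, with or without the block, 0.16 with paraquat and mixture alone and −0.07 to 0.04 without 1 library. The causes were not tested. Depth limits mainly genes of a few reads, such as Slc6a3.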

Other observations

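Some gene groups not described above held a few members called higher. Over all genes tested 6.52% rose and 3.14% fell. Of 10 corticosteroid receptor and induced genes 3 rose and 0 fell (median 0.115 against −0.013 for all genes). Cdkn1a, the cell cycle inhibitor p21, went from 97.4 ± 5.41 in control (n = 4) to 135 ± 15.5 in exposed libraries (n = 11) with no overlap (0.45 ± 0.10, limma adjusted p = 0.00534). Per1, which is also a clock gene, kept its call without any 1 library, and Errfi1 lost its call without any 1 of 9 libraries, the 4 controls among them (adjusted p up to 0.157). Of 20 genes of cholesterol and myelin lipid synthesis 4 rose and 0 fell at a median of 0.026. Dhcr7, which makes cholesterol in its final step, went from 497 ± 79.3 to 667 ± 92 (0.43 ± 0.09, adjusted p = 0.00486), and Gal3st1, which makes the myelin lipid sulfatide, from 264 ± 40.2 to 382 ± 93.5 (0.54 ± 0.12, adjusted p = 0.00884). The call of Gal3st1 ended with the 11 exposed libraries as 1 group (adjusted p = 0.0817) and over the TiO2 and mixture groups alone (adjusted p = 0.092). Of 22 cadherin and protocadherin genes 5 rose and 0 fell (median 0.120), and the adhesion gene Pcdh9 was the member that held without any 1 library (0.28 ± 0.06, adjusted p = 0.00521). Of 22 imprinted genes 3 rose and 0 fell, and Gnas, the stimulatory G protein subunit, held without any 1 library (6226 ± 610 to 7829 ± 771, 0.33 ± 0.07) but not with the GC correction (adjusted p = 0.0654). DESeq2 called 1 gene lower in each of the cholesterol, cadherin and imprinted lists, and the fit with the GC correction called 1 imprinted gene lower.

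Markers of other cell types are given beside the 9.66% of all genes tested that were called. Of 16 microglial genes Tmem119 and Laptm5 were called higher and Cybb lower (adjusted p = 0.0376, 0.047 and 0.0415), and each call was lost without any 1 of 9 libraries or with the GC correction. Limma called 0 of 14 genes of endothelium and pericytes, 0 of 10 of ependyma, 0 of 4 of choroid plexus and 0 of 3 of blood. At an unadjusted p under 0.05 these had 1 higher and 1 lower, none, 1 higher and none. All 15556 genes had 2185 higher and 1823 lower at that level. Both edgeR and DESeq2 called 0 in each of these lists. The summed signal of the blood genes was 1331 to 2289 in control and 1304 to 2038 in exposed libraries, and that of the choroid plexus genes 146 to 220 and 147 to 344. Of 12 interneuron genes somatostatin (Sst) was called higher (0.23 ± 0.07, adjusted p = 0.0437), and its call was lost without any 1 of 9 libraries or with the GC correction (adjusted p up to 0.258). Of 18 cell division genes Cenpu was called lower (−0.81 ± 0.24, adjusted p = 0.035) and was lost without control 1, control 3, control 4, paraquat 1 or mixture 3 (adjusted p up to 0.104) and with the GC correction.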
